A study of Mus musculus with 4 samples.

Results

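Cxcr3-/- monocytes were compared with wild-type (WT) monocytes by Omni-ATAC-seq, which marks open chromatin by letting a transposase cut it and tag the ends for sequencing. The comparison took the library labelled Cxcr3-/- monocytes and the library labelled WT monocytes, 2 of the 4 libraries of the series, with all called intervals on chromosomes 1 to 19 and X. The other 2 libraries, from common myeloid progenitors and granulocyte-monocyte progenitors (CMP/GMP) of either genotype, served as a second comparison of the same genotypes. All 4 came from bone marrow-derived cells of C57BL/6J mice. The labels give hepatocellular carcinoma as their disease state, and the design text describes mice given diethylnitrosamine and CCl4 while placing the cells used for ATAC-seq in culture. How the knockout allele was built, how the monocytes were purified, how long they were cultured and how many animals were used are not given in the sources used here. With 1 library in each group there was no replicate check, no p-value could be given, and the intervals below cover counting error alone.

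CXCR3 is a G protein-coupled chemokine receptor for Cxcl9 and Cxcl10, best known for drawing T and NK cells into inflamed tissue. Like other chemokine receptors it acts through Gi proteins, phosphoinositide 3-kinase gamma and the Dock2 and Elmo1 exchange factor complex, which activates Rac at the leading edge. Monocytes arise from CMP and GMP under the lineage factor PU.1 (Spi1) together with Irf8, Klf4 and C/EBP proteins, and they give rise to macrophages in tissues. The question of the study was how CXCR3 bears on that differentiation.

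The basic value is the number of tags stacked at the summit of an accessible interval. For a gene, tags were summed over all regions called in both libraries within its body and 10 kb on either side, which is called its locus. The log2 ratio of Cxcr3-/- to WT was set to a median of 0 over shared regions, and the trend of the ratio with gene density, described below, was taken out, which gives the adjusted log2 ratio. A locus was described when it held at least 200 tags in all, and it was called higher or lower when the adjusted log2 ratio passed 0.32 in either direction. Where a range follows a ratio in brackets, it is the exact 95% counting interval. A ratio given without one can have an interval that includes 0. In bulk samples such as these, fewer cells with an open region and less accessibility in each cell cannot be told apart.

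The WT library held 98257 intervals over 28.1 Mb and the Cxcr3-/- library 78244 over 23.3 Mb, each with a median of 21 tags at the summit. Background stood at 95.6 tags per 10 kb in WT and 97.2 in Cxcr3-/-. Shared regions held fewer tags in Cxcr3-/-, with a median log2 ratio of −0.30, while the background expected at a summit had a log2 ratio of 0.17. Signal over background was thus lower in the Cxcr3-/- library, and its part in the ratios was not tested. Markers of the labelled cell type were open, though not all followed the label. The marker tags that follow are raw counts, not scaled between libraries. All summit tags summed to 3.22e+06 in WT and 2.42e+06 in Cxcr3-/- monocytes, and to 2.05e+06 and 3.49e+06 in CMP/GMP. The order of raw counts between cell types, as at Elane, can therefore differ from the order after scaling. Classical monocyte genes had an interval in 25 of 26 loci in WT and 24 of 26 in Cxcr3-/-, with 5813 and 3944 tags, against 3305 and 5838 in WT and Cxcr3-/- CMP/GMP. The locus of Csf1r, the receptor for macrophage colony-stimulating factor, held 608 tags in WT and 351 in Cxcr3-/- monocytes, against 187 and 332 in CMP/GMP. Mpo, a primary granule gene of progenitors, held 89 and 76 tags in monocytes and 312 and 409 in CMP/GMP. Elane, another granule gene, held 187 and 85 tags in monocytes against 150 and 335 in CMP/GMP. The monocyte genes Ly6c2 (47 and 46 against 63 and 152) and Ccr2 (107 and 62 against 112 and 183) were not higher in monocytes. Genes of other cells were open as well. Macrophage genes had an interval in 30 of 31 loci in each monocyte library (6981 tags in WT, 4804 in Cxcr3-/-), stem and progenitor genes in 33 of 33, and neutrophil granule genes in 23 of 25. T and NK cell genes had one in 15 of 21 loci in WT and 13 of 21 in Cxcr3-/- monocytes, with 1738 and 1278 tags, and Cd3g held 154 and 88 tags, while Cd3e, which like Cd3g defines T cells, had none in any of the 4 libraries. The part of other cells in the ratios was not tested. Open chromatin at a locus does not show that the gene was expressed.

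Cxcr3 lies on the X chromosome (mm10, 101731535 to 101734147). Its locus held 2 shared regions with 93 tags in WT and 51 in Cxcr3-/- monocytes. The WT library was the higher of the pair at both, but 144 tags are too few for a locus value here, and the sources used here do not give the deleted part of the gene, so the genotype label was not checked by it. Of the ligand genes, Cxcl9 held 69 tags in WT and 40 in Cxcr3-/-, and Cxcl10 149 and 102, the latter with an adjusted log2 ratio of −0.13 (−0.51 to 0.24).

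Chromatin was open at largely the same places in both genotypes. The lists merged into 101966 regions, of which 70618 (69.3%) were called in both, 25996 in WT alone and 5352 in Cxcr3-/- alone. Each of the 20000 best-ranked intervals of either list had a partner, meaning an interval of the other list that shared at least 1 base. In the next 10000, 5 Cxcr3-/- intervals and 18 WT intervals had none. The share without a partner then rose with rank to 30.4% (29.5 to 31.5%) of the last 8244 Cxcr3-/- intervals and 76.8% (75.9 to 77.7%) of the last 8257 WT intervals. Over the full lists 6.84% of Cxcr3-/- and 26.5% of WT intervals had no partner, and with lists of equal length 13.6% and 15.1%. Thus most intervals without a partner ranked low in their own list. The best of them in WT lay 300182 bp from Pitrm1 (rank 24927, 30 tags), in Setd7 (32 tags), Nr6a1 (44 tags), Tctn2 (30 tags) and Kdm6b (62 tags). In Cxcr3-/- the best lay 225960 bp from Tbc1d5 (rank 27320, 24 tags), near Setbp1 and Hyal5 (22 tags each), and in N4bp1 (30 tags) and Gadl1 (22 tags). Of these 5 WT intervals, 2 were called in both CMP/GMP libraries and 3 in neither, and of the 5 Cxcr3-/- intervals 4 were called in both and 1 in WT alone.

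The height of shared regions shifted with their surroundings. Where the 1 Mb window around a region held few protein-coding genes (median 3), regions were higher in Cxcr3-/- monocytes, with a median log2 ratio of 0.18. In the most gene-rich quintile (median 29 genes) the median was −0.21, and the quintiles between stood at 0.09, 0.02 and −0.08. The number of accessible regions in the window gave a similar gradient, from 0.23 to −0.21. In CMP/GMP both gradients ran the other way, from −0.09 to 0.08 by genes. Taking out the gene density trend left a smaller gradient with the number of accessible regions, from 0.13 in the sparsest to −0.10 in the densest quintile of monocyte regions. Region strength also moved with the ratio, since the weakest quintile of shared regions had an adjusted median of 0.15. Both were left in the values below, and their part in any single locus was not tested.

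**Figure D1:**
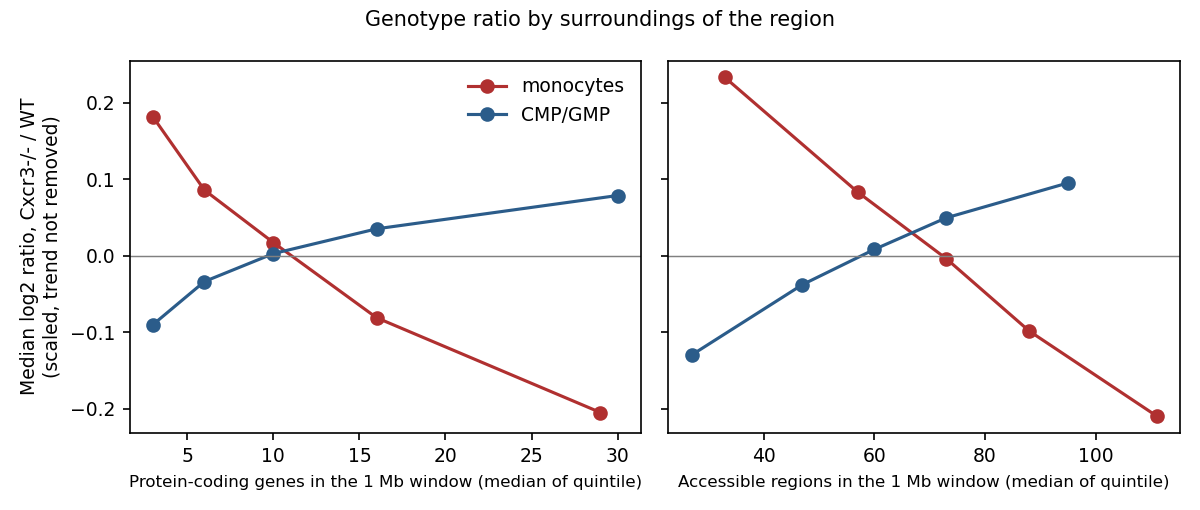
Median log2 ratio of Cxcr3-/- to WT tags, scaled but with the trend left in, for quintiles of shared regions ordered by the number of protein-coding genes (left) or accessible regions (right) in the surrounding 1 Mb. Points are quintile medians; the monocyte line falls from 0.18 to −0.21 by genes, and the CMP/GMP line rises from −0.09 to 0.08.

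Of 10142 gene loci with enough tags, 656 (6.47%) were higher and 696 (6.86%) lower in Cxcr3-/- monocytes. The median was −0.02, and 5% of loci lay below −0.35 and 5% above 0.36. A counting interval wholly above 0 was seen for 916 loci (9.03%) and wholly below 0 for 941 (9.28%). These shares are the background against which the gene groups below are read. Higher and lower mean relative to the median of shared regions. Scaled by background tags instead, the median locus stood at −0.49, with 8 loci higher and 7897 lower, so the balance between directions rests on the scaling. With the gene density trend left in, 670 were higher and 1824 lower. Single calls rest on the trend as well. It was handled in 4 other ways, with none removed, with the number of accessible regions alone, with that number and gene density together, and with promoter GC content. Of the loci of genes named here, 76 were lower, and 36 of these stayed past −0.32 under all 4, while 51 were higher, and 16 of these stayed past 0.32. None of the 76 and 3 of the 51 changed sign under any single one. Loci that share regions with a neighbour are not independent, and the loci had 9737 distinct sets of regions.

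Among loci with at least 3 regions and 300 tags, the lowest was Tle3 (chromosome 9, 61372326 to 61418497), which encodes a Groucho-type corepressor. It held 332 tags in WT and 196 in Cxcr3-/- over 7 regions, an adjusted log2 ratio of −0.75 (−1.01 to −0.49). The 5 central regions, from the promoter into the gene body, were lower (58, 79, 59, 71 and 22 tags in WT against 32, 36, 29, 47 and 12), while the outermost regions were nearly level at 21 against 20 and 22 against 20. Kifc5b, a kinesin gene, followed with 257 tags in WT and 122 in Cxcr3-/- (−0.66, −0.98 to −0.34). Dusp4, a phosphatase that turns off ERK kinases, held 202 and 121 tags (−0.64, −0.98 to −0.31), and each of its 5 regions was lower in Cxcr3-/-. Spred3 (−0.62), Evi2 (−0.61), Pigz (−0.60), the pentose phosphate enzyme gene Tkt (−0.60), the prostaglandin E synthase gene Ptges (−0.60), Tmem241 (−0.60) and the complex I subunit gene Ndufc1 (−0.59) completed the 10 lowest. Dusp4 and Spred3 both encode brakes on ERK signalling. All 10 stayed past −0.32 under the 4 other trends.

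The highest locus was Olfr111 (chromosome 17, 37525753 to 37537652), an olfactory receptor gene, with 124 tags in WT and 212 in Cxcr3-/- over 4 regions (1.31, 0.98 to 1.64). All 4 regions held more tags in Cxcr3-/- even before scaling, at 53 against 31, 52 against 35, 94 against 48 and 13 against 10. Skint3 held 121 and 184 tags (0.87, 0.53 to 1.21). Tespa1, a gene for a signalling adaptor of lymphocytes and mast cells, held 212 and 265 (0.79, 0.52 to 1.06). Cpox, an enzyme gene of heme synthesis, held 136 and 169 (0.78, 0.45 to 1.12). Then came Gm38525 (0.73), the ATP-gated channel gene P2rx5 (0.72), Fam160a2 (0.71), the lysosomal cystine transporter gene Ctns (0.70), Trim30c (0.69) and Hmgcs1 (0.67). Hmgcs1 makes the HMG-CoA of the cholesterol pathway and held 310 tags in WT and 370 in Cxcr3-/-. Of these 10, 7 stayed past 0.32 under the 4 other trends, but with accessible regions as the trend Tespa1 stood at 0.30, Gm38525 at 0.24 and Trim30c at 0.19. Gm38525 and Trim30c lie close together on chromosome 7, and P2rx5 and Ctns on chromosome 11.

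**Figure D2:**
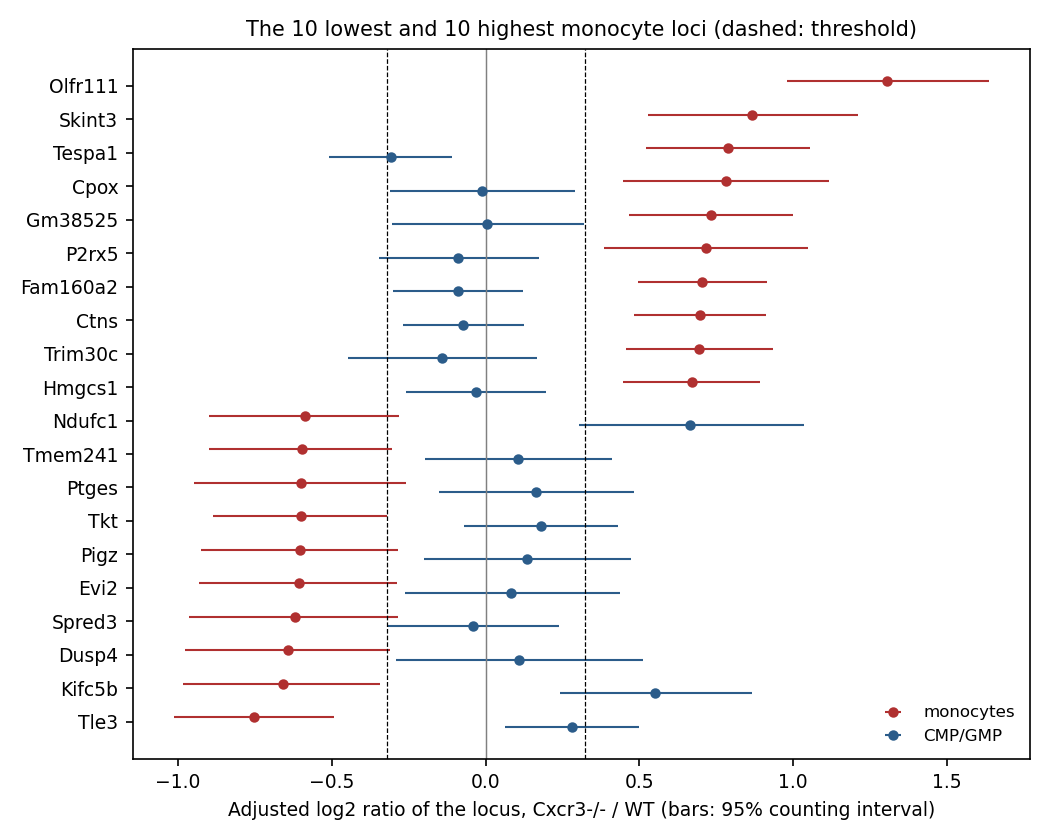
Adjusted log2 ratio of Cxcr3-/- to WT tags for the 10 lowest and 10 highest monocyte loci (red), with the same loci in CMP/GMP (blue) where at least 200 tags were present. Bars are 95% counting intervals and dashed lines mark 0.32 in either direction; the monocyte values run from −0.75 at Tle3 to 1.31 at Olfr111, and Tle3, Kifc5b and Ndufc1 lie above 0 and Tespa1 below 0 in CMP/GMP.

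Some of these differences sat at promoters. The promoter region of Tle3 held 79 tags in WT and 36 in Cxcr3-/- (−1.13), that of Pik3cg 66 and 29 (−0.96), and that of Elmo1 76 and 35 (−0.89). The promoter region of Pgk1 held 97 and 169 tags (1.11, 0.74 to 1.48), and that of Hmgcs1 250 and 294 (0.65). The 250 bases before the start site of these 5 genes are shown because their regions lay far on either side of 0 in genes of the groups below. They are RefSeq sequences of GRCm38.p6, the assembly called mm10, read 5′ to 3′ along the gene's strand at chr9:61372116-61372365 (plus), chr12:32208471-32208720 (minus), chr13:20090257-20090506 (plus), chrX:106186850-106187099 (plus) and chr13:119690101-119690350 (plus) in the order shown. Capitals mark matches on either strand to any of 11 short motifs searched, which in these 5 were an ETS site with a PU.1 flank (GAGGAAGT), the CCAAT box (CCAAT), the GC box (GGGCGG), the E-box (CACGTG) and the TATA box (TATAAA).
Tle3: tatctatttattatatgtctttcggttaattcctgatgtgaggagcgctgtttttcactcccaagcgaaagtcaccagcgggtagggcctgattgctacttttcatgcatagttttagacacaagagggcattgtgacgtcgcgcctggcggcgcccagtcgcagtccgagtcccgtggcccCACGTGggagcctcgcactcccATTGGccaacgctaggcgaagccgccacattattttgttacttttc
Pik3cg: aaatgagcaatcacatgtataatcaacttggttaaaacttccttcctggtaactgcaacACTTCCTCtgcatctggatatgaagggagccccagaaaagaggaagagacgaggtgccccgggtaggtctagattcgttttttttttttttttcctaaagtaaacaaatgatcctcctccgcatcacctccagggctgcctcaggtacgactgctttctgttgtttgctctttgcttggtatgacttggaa
Elmo1: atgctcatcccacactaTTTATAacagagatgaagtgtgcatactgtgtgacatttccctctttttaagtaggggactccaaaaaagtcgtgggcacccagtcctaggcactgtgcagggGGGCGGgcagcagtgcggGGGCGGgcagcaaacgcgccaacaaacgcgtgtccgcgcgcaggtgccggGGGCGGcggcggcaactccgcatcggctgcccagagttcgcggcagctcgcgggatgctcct
Pgk1: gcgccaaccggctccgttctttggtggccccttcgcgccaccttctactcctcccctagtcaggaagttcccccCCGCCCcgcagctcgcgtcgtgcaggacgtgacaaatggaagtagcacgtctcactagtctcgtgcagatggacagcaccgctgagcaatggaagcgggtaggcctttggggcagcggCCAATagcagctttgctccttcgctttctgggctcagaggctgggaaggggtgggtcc
Hmgcs1: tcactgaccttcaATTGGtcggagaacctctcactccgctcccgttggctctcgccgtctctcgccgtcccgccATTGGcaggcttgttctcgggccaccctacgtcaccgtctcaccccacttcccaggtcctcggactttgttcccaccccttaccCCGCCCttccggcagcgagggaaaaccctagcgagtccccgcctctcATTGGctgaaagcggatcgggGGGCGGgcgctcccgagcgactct

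The Pik3cg promoter held the PU.1-flanked ETS site, which 3.15% of 21045 RefSeq promoters (each 250 bases before to 50 after the start) also held, while the GC box was in 46.7%, the CCAAT box in 38.5%, the TATA box in 12.7% and the E-box in 7.91%. GC content of these stretches ran from 44.0% at Pik3cg to 64.8% at Hmgcs1. Over 9017 regions that covered a promoter, the adjusted ratio was nearly unrelated to promoter GC content (Spearman −0.06 across regions). Promoter regions with the cyclic AMP response element (TGACGTCA, 307 of them) had a median of −0.11, against −0.03 without it. Those with an interferon-stimulated response element-like motif (264) had 0.02 against −0.04, and those with the PU.1-flanked site (323) −0.01 against −0.04. These are descriptions of letters in a window, and the differences are small beside the SD of 0.41 over all shared regions.

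Of 46 genes for myeloid transcription factors with a value, 7 were lower and 0 higher, and 12 had an interval wholly below 0. Their median was −0.08 against −0.02 over all loci, but −0.03 against −0.05 with accessible regions as the trend. Spi1 (chromosome 2, 91082374 to 91115759), which encodes PU.1, held 475 tags in WT and 260 in Cxcr3-/- (−0.40, −0.62 to −0.18). Of its 7 regions, 6 were lower in Cxcr3-/-, and the weakest held 13 tags in each library. Fosl1 (−0.51, −0.94 to −0.09) and Fos (−0.34, −0.62 to −0.06), both AP-1 subunits, Egr2 (−0.40, −0.71 to −0.09) and the retinoid receptor gene Rxra (−0.40, −0.65 to −0.15) were also lower. Of the 7, Spi1 and Fosl1 stayed lower under all 4 other trends. With accessible regions as the trend Egr2 stood at −0.04 and Fos at −0.20, and with promoter GC Rxra stood at −0.18. Runx1, with 1077 and 777 tags over 26 regions, stood at −0.25 (−0.39 to −0.12), but at −0.03 with accessible regions as the trend. The intervals of other lineage factors included 0, with Cebpa at 0.02 (−0.26 to 0.30), Cebpb at −0.13 (−0.46 to 0.19), Klf4 at −0.21 (−0.48 to 0.07) and Klf2 at 0.01 (−0.23 to 0.25). In CMP/GMP, where 3.98% of 10703 loci were higher and 1.61% lower, 3 of 44 were higher and 0 lower, with a median of 0.12 against 0.05 over all loci.

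Interferon regulatory factor genes, which drive both interferon responses and monocyte fate, had a median of −0.29 over 7 members measured. It was −0.12 with accessible regions as the trend, against −0.05 over all loci. Irf4 held 162 tags in WT and 105 in Cxcr3-/- (−0.40, −0.77 to −0.03), and Irf1 266 and 148 (−0.39, −0.69 to −0.09), both past −0.32. With accessible regions as the trend Irf4 stood at −0.27, and with both densities Irf1 stood at −0.31. Irf2 with 905 and 625 tags (−0.31, −0.46 to −0.16) and Irf8 with 282 and 187 (−0.29, −0.57 to −0.02) stayed just inside. With accessible regions as the trend Irf2 stood at −0.14 and Irf8 at −0.08. At Irf8, which specifies monocytes and dendritic cells, most of the difference lay at the promoter with 71 tags in WT and 34 in Cxcr3-/-, while the 6 other regions lay between −0.32 and 0.16. Irf5 (−0.10) and Irf7 (0.18) had intervals that include 0. The highest of the 7 members stood at 0.23, and 1 of the 7 had an interval wholly above 0. In CMP/GMP the 6 members measured had a median of 0.06.

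**Figure D3:**
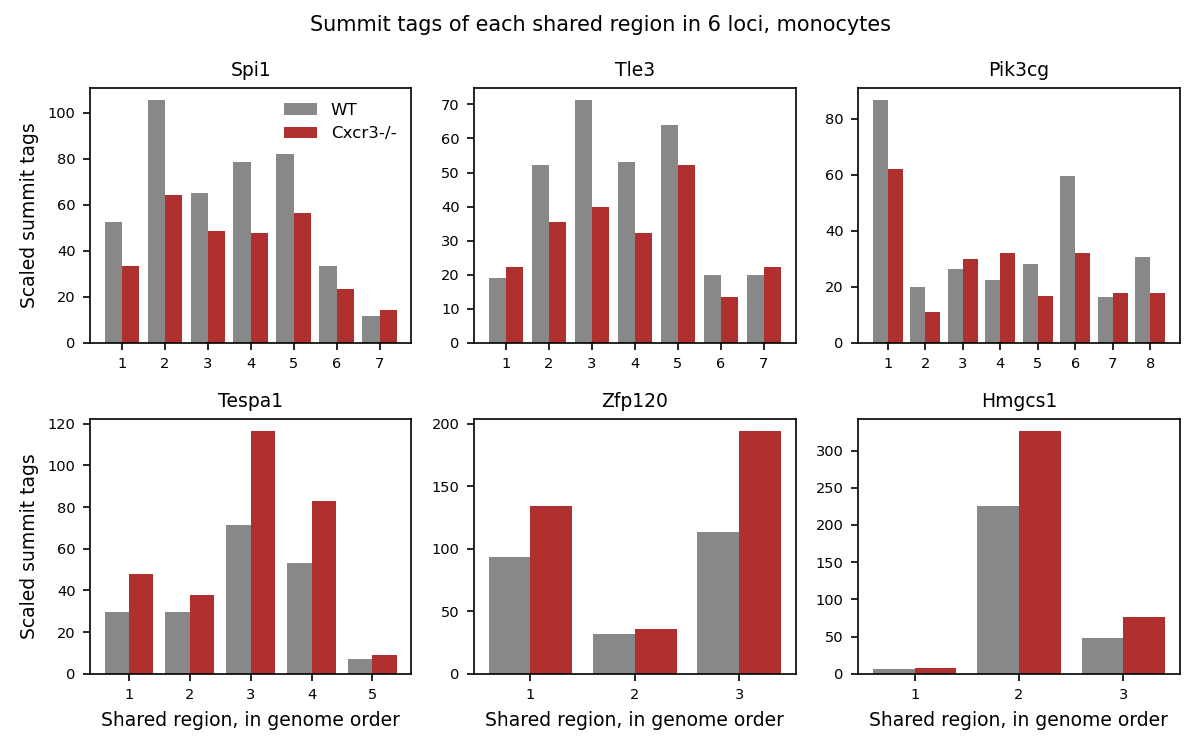
Summit tags of every shared region in 6 monocyte loci, scaled between the libraries, for WT (grey) and Cxcr3-/- (red); regions are numbered in genome order and axes start at 0. WT is the higher library at 6 of 7 Spi1 regions, and Cxcr3-/- at all regions of Tespa1, Zfp120 and Hmgcs1.

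All 30 genes of the list for signalling below chemokine receptors had a value, 6 were lower and 2 higher, and the median was −0.13. Pik3cg, the phosphoinositide 3-kinase of Gi-coupled receptors, held 321 tags in WT and 198 in Cxcr3-/- (−0.47, −0.74 to −0.21). Elmo1 held 1339 and 906 over 34 regions (−0.45, −0.57 to −0.32), and its partner Dock2 645 and 438 over 17 (−0.41, −0.58 to −0.23). Both belong to one complex. With accessible regions as the trend Elmo1 stood at −0.13 and Dock2 at −0.43, and with no trend removed they stood at −0.27 and −0.26. The Rac exchange factor gene Prex1 (−0.38, −0.58 to −0.19) and the phospholipase gene Plcb3 (−0.38, −0.64 to −0.11) were also lower, as was Dock8 (−0.36, −0.54 to −0.17). Of these 6, Pik3cg alone stayed past −0.32 under all 4 other trends, and Prex1 stood at −0.14 with accessible regions as the trend. The other direction was taken by 2 genes for regulators that end G protein signals, Rgs19 with 271 and 281 tags (0.54, 0.29 to 0.78) and Rgs18 with 151 and 191 (0.44, 0.12 to 0.75), and both stayed past 0.32 under all 4. Gnai2, the main Gi subunit gene of leukocytes, was level at −0.01 (−0.17 to 0.14), and Rac2 stood at −0.14 (−0.47 to 0.19).

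Among chemoattractant receptor genes, 3 of 14 were higher and 0 lower, with a median of −0.01. They were the formyl peptide receptor genes Fpr2 (264 and 279 tags, 0.45, 0.20 to 0.69) and Fpr1 (268 and 275 tags, 0.42, 0.17 to 0.67), which are neighbours and share regions, and the decoy receptor gene Ccrl2 (0.38, 0.06 to 0.70). With accessible regions as the trend Fpr2 stood at 0.22 and Fpr1 at 0.20, and with no trend removed Ccrl2 stood at 0.21. Cx3cr1 (0.10, −0.11 to 0.31), Ccr1 (0.01, −0.35 to 0.37) and Cxcr4 (−0.11, −0.52 to 0.29) had intervals that include 0. Ccr2, the receptor that brings monocytes out of the marrow, held 94 and 62 tags in shared regions, too few for a value. Of 14 chemokine genes 1 was lower, Ccl9 (−0.38, −0.78 to 0.009, an interval that includes 0), and 0 higher.

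Of 31 genes of the mitogen-activated protein kinase cascade, which includes its upstream kinases, 5 were lower and 0 higher, with a median of −0.12. These were Map3k20 (641 tags in WT and 406 in Cxcr3-/-, −0.50, −0.69 to −0.32), Map3k1 (−0.47, −0.70 to −0.25), Map2k1 (−0.44, −0.70 to −0.19), Map3k5 (−0.41, −0.60 to −0.22) and Map3k11 (−0.34, −0.63 to −0.05). Map3k20, Map2k1 and Map3k5 stayed past −0.32 under all 4 other trends, while Map3k1 stood at −0.22 with promoter GC and Map3k11 at −0.22 with both densities. The forkhead genes Foxo1 (145 and 86 tags, −0.66, −1.06 to −0.26) and Foxo3 (450 and 278 tags, −0.47, −0.69 to −0.25), targets of phosphoinositide 3-kinase signalling, were the 2 lower of 16 in their family, whose median was 0.09. Foxo3 stood at −0.24 with promoter GC as the trend. In cytokine receptor and JAK-STAT genes 3 of 43 were lower and 1 higher. Csf2rb, the shared beta chain of the GM-CSF and IL-3 receptors, stood at −0.39 (−0.82 to 0.02) and the inhibitor gene Cish was the higher one.

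Clock genes were lower in 5 of 20 cases and higher in 0, with a median of −0.10. The repressor gene Cry2 held 232 tags in WT and 141 in Cxcr3-/- (−0.44, −0.75 to −0.13), the activator gene Npas2 493 and 300 (−0.41, −0.62 to −0.20), Nfil3 245 and 158 (−0.41, −0.70 to −0.11), Per1 454 and 252 (−0.35, −0.58 to −0.13) and Nr1d1 347 and 194 (−0.33, −0.59 to −0.07). Cry2 and Nfil3 stayed past −0.32 under all 4 other trends, while Npas2 stood at −0.30 with accessible regions, and Per1 at −0.25 and Nr1d1 at −0.21 with both densities. In CMP/GMP 3 of 20 clock genes were higher and 0 lower. The labels give no time of harvest.

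Macrophage genes had a median of −0.17 over 22 with a value, of which 15 lay below 0. Lyve1, a hyaluronan receptor of resident macrophages, held 196 and 123 tags (−0.45, −0.78 to −0.11), and Gas6, a bridging ligand for clearing dead cells, 188 and 102 (−0.41, −0.78 to −0.06). Mertk, a receptor for Gas6, stood at −0.25 (−0.53 to 0.02). The scavenger receptor gene Cd163 held 138 and 137 tags (0.43, 0.08 to 0.78), which is a higher ratio after scaling, and was the only one of the 22 above 0.32. Marco (0.30) and Cd63 (0.29) also lay above 0, with intervals that include it. Under the other trends Lyve1 stood at −0.24 with accessible regions and Cd163 at 0.29 with promoter GC or with no trend removed, while Gas6 stayed past −0.32 under all 4. Lysosome and autophagy genes were lower in 6 of 45 cases and higher in 0, with a median of −0.11. They were the autophagosome genes Map1lc3b (218 and 123 tags, −0.51, −0.84 to −0.18), Gabarap, Atg5 and Sqstm1 (−0.33 to −0.35), the lysosomal membrane gene Lamp2 (−0.39) and the proton pump gene Atp6v1b2 (−0.38). Map1lc3b, Lamp2 and Atp6v1b2 stayed past −0.32 under all 4 other trends. Classical monocyte genes were centred at 0.04, but how they stood to macrophage genes depended on the trend. With accessible regions the medians were −0.06 for classical monocyte and −0.19 for macrophage genes, against −0.05 over all loci. With promoter GC they were −0.15 and −0.10, against −0.06 over all loci. Among classical monocyte genes the factor XIII gene F13a1 was lower (195 and 133 tags, −0.43, −0.75 to −0.10, but −0.25 with no trend removed). Non-classical monocyte genes had 0 of 11 past the threshold in either direction.

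Growth and survival genes were mixed. Among cell cycle and DNA replication genes 8 of 41 were lower and 2 higher, with a median of −0.04. The lower ones included the clamp unloader gene Atad5 (259 and 142 tags, −0.53), Aurkb (290 and 145, −0.51), E2f2 (245 and 131, −0.43), Mcm4 (−0.39), Cdkn1a (−0.35), Tk1 (−0.35), Mcm2 (−0.34) and Pcna (−0.34). Cdk2 (0.39, 0.15 to 0.62) and Mcm3 (0.38, 0.05 to 0.71) were higher, so subunits of one helicase lay on both sides. Of the 10, Atad5, Aurkb and E2f2 stayed past the threshold under all 4 other trends, and Cdk2 stood at 0.12 with no trend removed and Mcm3 at 0.22 with accessible regions. The Cdk2 value came from a neighbouring promoter within 10 kb (242 and 233 tags, 0.51), while its own promoter region held 75 and 48 (−0.08). In the apoptosis list 4 of 22 were lower and 0 higher, among them the effector genes Bak1 (−0.44) and Cycs (−0.43) and the BH3-only gene Bcl2l11 (−0.40, but −0.12 with accessible regions as the trend). Chromatin regulators were lower in 6 of 52 cases, among them the bromodomain genes Brd2 (−0.49, −0.81 to −0.18) and Brd3 (−0.34), the remodeller gene Arid1a (477 and 263 tags, −0.37) and the deacetylase gene Sirt1 (−0.40), and higher in 2, Rad21 and Chd4. The intervals of Rad21 (−0.01 to 0.79) and Chd4 (−0.04 to 0.73) include 0. Of those named, Brd2 and Sirt1 stayed past the threshold under all 4 other trends, and Chd4 stood at 0.11 with no trend removed and Rad21 at 0.21 with accessible regions.

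Innate sensing genes went both ways. Of 15 inflammasome and pyroptosis genes, 4 were higher and 0 lower, with a median of 0.03. They were Nlrp10 (174 and 186 tags, 0.56, 0.26 to 0.87), Casp1 (152 and 179, 0.36, 0.04 to 0.68), the DNA sensor gene Aim2 (1052 and 997, 0.36, 0.23 to 0.48) and Casp4 (202 and 232, 0.33, 0.05 to 0.61). Casp1 and Casp4 lie side by side, and Nlrp3 was level at 0.01 (−0.29 to 0.30). None of the 4 stayed past 0.32 under every other trend. With gene density and accessible regions both taken out, Casp1 stood at 0.19, Casp4 at 0.15 and Aim2 at 0.31, while Nlrp10 stood at 0.43. With accessible regions alone Aim2 stood at 0.12 and Nlrp10 at 0.14, and with promoter GC Aim2 stood at 0.02. Interferon response genes had 5 of 28 higher and 4 lower, while 5 had an interval wholly above 0 and 3 wholly below 0. The higher ones were Trim30a (0.58), Ifi204 (352 and 369 tags, 0.54), Ifi207 (0.49), Isg15 (0.41) and Gbp3 (0.38), and the lower ones Bst2 (226 and 116 tags, −0.45), Dhx58 (−0.45), the receptor gene Ifnar1 (−0.37) and the kinase gene Eif2ak2 (−0.34). Bst2, Dhx58 and Eif2ak2 stayed past −0.32 under all 4 other trends and none of the 5 higher genes did past 0.32. With accessible regions as the trend Trim30a stood at 0.07 and Isg15 at 0.14, and with promoter GC Ifi204 stood at 0.15, Ifi207 at 0.10 and Gbp3 at 0.29. Inflammatory cytokine and NF-kB genes had 0 of 34 past the threshold, with a median of −0.08.

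MHC class II genes, which present peptides to helper T cells, moved with the gene density trend. Their 8 measured loci had a median of −0.36 before the trend was taken out and −0.11 after it. Over all loci the medians were −0.08 and −0.02. After gene density was taken out, 0 of the 8 were past the threshold in either direction. With promoter GC as the trend the class II median was −0.27, against −0.06 over all loci. Ciita stood at −0.11 (−0.42 to 0.19) and Cd74 at −0.22 (−0.59 to 0.15). Of 13 class I and peptide loading genes, H2-M3 was higher (0.42, but 0.02 with accessible regions as the trend) and Tapbp lower (−0.34, but −0.23 with both densities). Angiogenesis and growth factor genes were centred at 0.00, with 4 of 30 lower, namely Sema4d (−0.40, −0.57 to −0.22), Vegfb (−0.37, −0.61 to −0.12), the urokinase gene Plau (−0.36) and Vegfa (−0.32, −0.75 to 0.10, but 0.10 when intervals called in 1 library are added), and 2 higher, Ang and Mmp19. None of these 6 stayed past the threshold under all 4 other trends, and Sema4d stood at −0.19 and Mmp19 at 0.11 with accessible regions.

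Metabolic genes had no common direction, with list medians of −0.03 for both glycolysis and hypoxia and for lipid and cholesterol metabolism. The glycolytic gene Pgk1 held 128 tags in WT and 192 in Cxcr3-/- (0.89, 0.56 to 1.22), and the glucose transporter gene Slc2a1 467 and 439 (0.40, 0.21 to 0.59). Pgk1 kept at least 0.77 under the 4 other trends, while Slc2a1 stood at 0.14 with accessible regions. The enzyme genes Eno1 (−0.38, but −0.11 with accessible regions as the trend) and Hk3 (−0.37, −0.75 to 0.002, an interval that includes 0) were lower. Pgk1 was higher in Cxcr3-/- CMP/GMP as well, at 158 and 402 tags (0.66, 0.39 to 0.93). In monocytes the difference lay in its promoter region, since the other region of the locus held 31 tags in WT and 23 in Cxcr3-/-. As background, the Pgk1 promoter is often used in the selection cassettes of targeted alleles; the sources used here do not describe that of the Cxcr3 allele, and its part in this value was not tested. In the cholesterol pathway Hmgcs1 and Insig1 (142 and 163 tags, 0.42) were higher.

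A few gene families, picked after their values were seen, lay mostly above 0. Killer lectin receptor genes, known from NK cells, were higher at 4 of 4 loci measured, among them Klri2 (104 and 120 tags, 0.68) and Klra2 (133 and 148, 0.49). Olfactory receptor genes, which encode the odorant receptors of the nose, had 80 loci with a shared region, 14 with enough tags and 8 higher, with a median of 0.47. Serpin protease inhibitor genes were higher at 7 of 16, with a median of 0.27, led by Serpina3n (119 and 142 tags, 0.67) and Serpinb9 (152 and 172, 0.51). C-type lectin genes were higher at 6 of 18, with the same median, including Clec4a3 (222 and 221 tags, 0.46), Clec9a (0.42) and Clec12a (0.34). Each of these 4 families had 0 lower. A locus passes the tag minimum more easily when 1 library is high, so these counts describe only the members measured. Members that are neighbours are not independent either. The higher olfactory loci Olfr549, Olfr550 and Olfr551, for example, lie in the same 500 kb window of chromosome 7. Other families of neighbouring genes lay on either side of 0. Medians were −0.29 over 3 Ms4a loci, 0 of them past the threshold, and −0.06 over 17 CC and CXC chemokine loci. They were 0.26 over 23 protocadherin loci, 22 of them above 0, and 0.10 over 56 histone loci, 43 of them above 0. With accessible regions as the trend these 2 medians were −0.06 and −0.05.

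Zinc finger genes named Zfp, many of which encode KRAB repressors of transposons, had the most loci with enough tags among these families, with 45 of 168 higher, 6 lower and a median of 0.13. Zfp975 held 86 tags in WT and 146 in Cxcr3-/- (1.07, 0.67 to 1.47), Zfp712 98 and 123 (0.80, 0.40 to 1.19), and Zfp120 265 and 328 (0.61, 0.37 to 0.85). At the Zfp120 promoter the counts were 126 and 175, so the Cxcr3-/- library was the higher even before scaling. In CMP/GMP 6 of 196 Zfp loci were higher and 8 lower. Tripartite motif genes were higher at 6 of 34 and lower at 3. The 6, among them Trim68 (0.79), Trim21 (0.62) and Trim30a (0.58), all lie on chromosome 7, where the loci of Trim21 and the olfactory receptor gene Olfr549 hold the same regions.

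How far these families stood above 0 depended on the trend that was taken out. Without any trend removed the medians were 0.01 for Zfp, 0.26 for olfactory, 0.28 for serpin, 0.12 for C-type lectin and 0.46 for killer lectin genes, against −0.08 over all loci. With gene density and the number of accessible regions both taken out they were 0.11, 0.43, 0.20, 0.31 and 0.55. With accessible regions alone they were −0.02, 0.16, 0.14, 0.25 and 0.41, against −0.05 over all loci. With mean promoter GC content in place of gene density they were 0.02, 0.11, 0.14, −0.05 and 0.24, against −0.06 over all loci. Zfp120 stood at 0.31 with accessible regions, and Zfp975 and Zfp712 stayed past 0.32 under all 4.

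**Figure D4:**
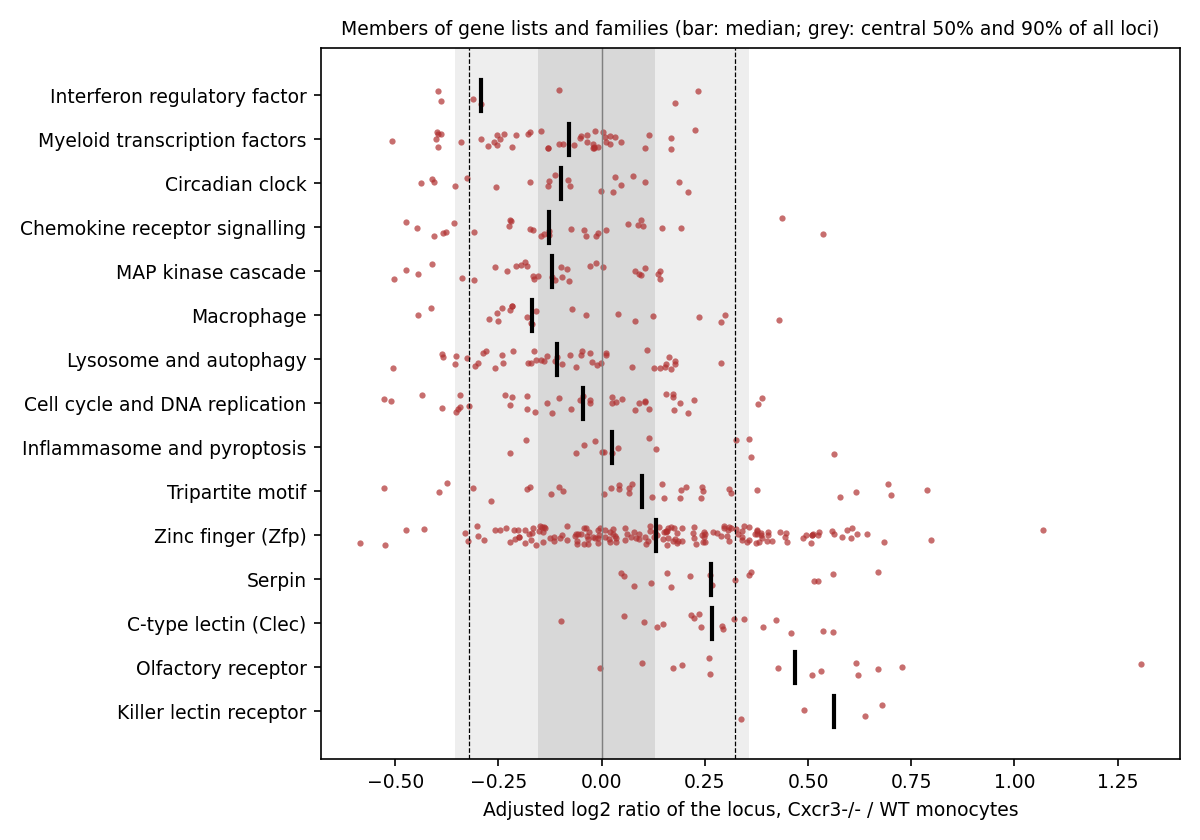
Adjusted log2 ratio of every measured member of 15 gene lists and families in monocytes (points, spread vertically for legibility), with the median of each as a black bar. Grey bands hold the central 50% and 90% of all 10142 loci and dashed lines mark 0.32 in either direction; medians run from −0.29 for interferon regulatory factors to 0.56 for killer lectin receptors.

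Single strong regions seldom differed much. Of 11422 regions with a mean of at least 60 scaled tags, 8 were more than 2-fold higher and 5 more than 2-fold lower in Cxcr3-/-. The highest lay near Olfr111 (48 tags in WT and 94 in Cxcr3-/-, 1.50, 0.99 to 2.03), followed by the promoters of Emc6 (63 and 114, 1.33) and Pgk1, a region near Tmem100 (53 and 96, 1.09) and one in Zyx (52 and 79, 1.08). The lowest was a promoter at Rsrc2 (97 and 32, −1.13, −1.76 to −0.54). It was followed by regions near Utrn (89 and 36, −1.08) and Ubl3 (93 and 40, −1.06), in Arhgap22 (103 and 43, −1.02) and near Klf14 (88 and 37, −1.01).

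No chromosome stood far apart. Adjusted medians ran from −0.06 on chromosome 11 to 0.06 on the X, and on the X the 178 regions within 5 Mb of Cxcr3 had a median of −0.01 against 0.07 for the rest of the X. In CMP/GMP the X stood at −0.03.

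The genotype difference in monocytes tended to run opposite to that in CMP/GMP. The comparisons share no library. Over 2557 windows of 500 kb with at least 8 shared regions, the Spearman correlation between them was −0.38, given as a description because neighbouring windows share chromatin context. Of 132 windows with a monocyte median above 0.32, 99 were measured in CMP/GMP and 79 of these lay below 0 there. Of 95 below −0.32, 90 were measured and 70 lay above 0, where 51.1% of all windows did. Over 9299 loci measured in both, the correlation was −0.25, and −0.20 with both densities taken out. Over the windows it was −0.53 with no trend removed, so its size depended on the trend. After gene density was taken out, region medians from the sparsest to the densest quintile of accessible regions ran from 0.13 to −0.10 in monocytes. In CMP/GMP they ran from −0.07 to 0.05. The part of these gradients in the correlations was not tested. Of 569 loci higher in monocytes, 7 were higher and 29 lower in CMP/GMP, and of 629 lower in monocytes, 46 were higher and 2 lower. Among all 10703 loci tested in CMP/GMP, 3.98% were higher and 1.61% lower, so calls there leaned to higher in any case. Spi1 held 293 and 582 tags in WT and Cxcr3-/- CMP/GMP (0.25, 0.04 to 0.46), opposite in sign to monocytes. Foxo3 held 306 and 599 (0.33, 0.13 to 0.53). Signal over background also differed between the cell types. The log2 ratio at shared regions before scaling was −0.30 in monocytes, against 0.17 for background, and 0.68 in CMP/GMP, against 0.61, and the part of this in the opposite signs was not tested.

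**Figure D5:**
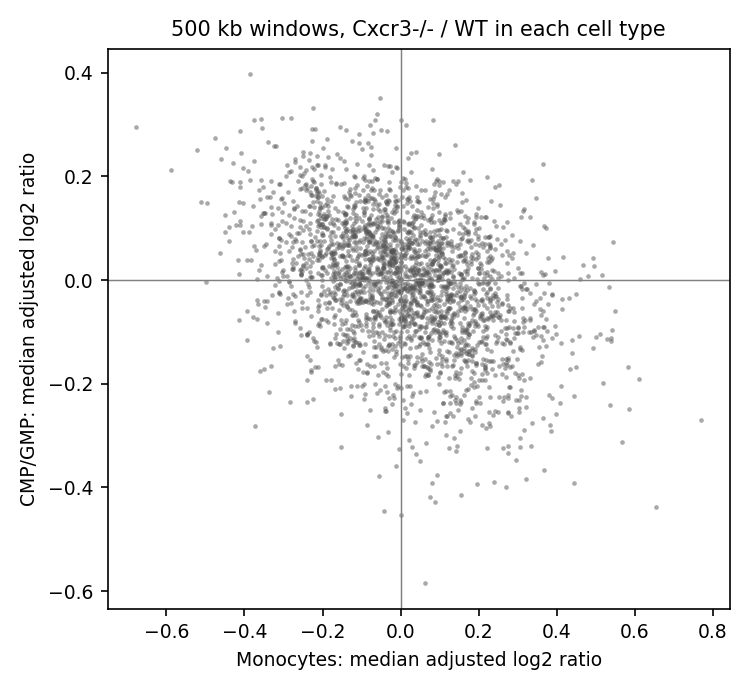
Each point is a 500 kb window with at least 8 shared regions in both cell types; the axes give the median adjusted log2 ratio of Cxcr3-/- to WT in monocytes and in CMP/GMP. The cloud slopes downward over 2557 windows (Spearman −0.38), with most windows above 0.32 in monocytes lying below 0 in CMP/GMP.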

How the data were processed

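The 4 libraries were sequenced as 75 bp read pairs in duplicates, per the labels' protocols; whether the duplicates were pooled is not stated. Per the submitters' processing notes, Trim Galore, Bowtie2 and SAMtools were used with mm10; a peak caller is not named in the sources used here. The authors deposited 1 interval list per library, with a score (not used), a fold enrichment (ratio), −log10 p and −log10 q values and a summit offset (position in bp), all computed by the authors. The deposited fold and −log10 p together give the whole-number tag pileup at each summit, assuming a Poisson background and 1 added tag; 3 intervals per library gave no whole number within 0.001. Python 3.11.15, numpy 2.4.6, pandas 2.3.3 and scipy 1.17.1 were used. Overlapping intervals of a pair were merged, pileups scaled to a median log2 ratio of 0, and the running median over 20 bins of gene density (RefSeq genes of GRCm38.p6 in 1 Mb) subtracted. Intervals are exact Clopper-Pearson intervals on 2 tag sums. The scripts were checked on simulated data.

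The members, the 43 gene lists (1275 of 1277 symbols matched) and 71 families were chosen with earlier results of these data known. Named genes were the 10 highest and lowest loci, up to 3 per list at either end, the CXCR3 axis, and the 5 single regions and 5 partnerless intervals at each end. Other list and family members, and the promoters shown, were named after their values were seen. Some list members are not reported here.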

Additional observations from a re-analysis of the deposited data

Results flagged for a closer look

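The gene density trend had opposite directions in the 2 cell types. The median log2 ratio of Cxcr3-/- to WT in the most gene-rich quintile of regions minus that in the poorest was −0.39 in monocytes and 0.17 in CMP/GMP. With 1 library per group this difference was not tested.

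Of the 20 loci at the extremes in monocytes, 4 had counting intervals on opposite sides of 0 in the 2 cell types, which was not tested either. The Tle3 locus stood at −0.75 in monocytes and 0.28 in CMP/GMP, the Kifc5b locus at −0.66 and 0.55, and the Ndufc1 locus at −0.59 and 0.66. The Tespa1 locus went the other way, at 0.79 and −0.31.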

How the results depend on the processing

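With 1 library per group leaving out a replicate was not possible, and no paired analysis was possible because the labels carry no replicate numbers and the result comes from no test. The planned trend with GC content of the regions was not run, as no genome was used here; trends with accessible regions, with both densities and with promoter GC were added after seeing the data. Tag pileups near 21 per summit limit single regions to coarse values.

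Background scaling gave 8 loci higher and 7897 lower and put the olfactory receptor median at −0.0034. It placed these loci, all higher in the report, below 0: Aim2 −0.11, Casp1 −0.11, Casp4 −0.15, Ccrl2 −0.090, Cd163 −0.042, Cdk2 −0.084, Chd4 −0.12, Cish −0.033, Clec12a −0.13, Clec4a3 −0.014, Clec9a −0.049, Fpr1 −0.053, Fpr2 −0.026, Gbp3 −0.090, H2-M3 −0.055, Insig1 −0.051, Isg15 −0.065, Mcm3 −0.093, Mmp19 −0.13, Rad21 −0.085, Rgs18 −0.035, Slc2a1 −0.073 and Zyx −0.051. With uncalled intervals as 0, over lists of 28.1 and 23.3 Mb, Chd4 stood at −0.16 and Vegfa at 0.10, with 2317 loci lower. With accessible regions as the trend Zyx stood at −0.00061, with 351 loci higher. With promoter GC, Clec12a stood at −0.046 and H2-M3 at −0.017, with 1232 loci lower. Without trend removal 1824 loci were lower and the X chromosome stood 0.11 above autosomes rather than 0.07. The gene body alone gave 429 lower, a minimum of 500 tags 160 higher and 147 lower, and no minimum 1838 and 1692. The gene density trend was −0.32 with a 200 kb window and −0.39 with regions of at least 30 tags. Intervals without a partner made up 17.8% of Cxcr3-/- and 34.5% of WT at 50% reciprocal overlap, 13.6% and 15.1% with lists of equal length, and 7.27% and 22.5% at a −log10 q of at least 5. The 200 kb window, the 50 kb flank, regions of at least 30 tags, −log10 q of at least 5 and both densities together reversed none of the named loci that were past 0.32. The cause of these shifts was not tested.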
